A study of Mus musculus with 7 samples.

Results

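Transcripts of 10 genes of polyamine metabolism, chosen by symbol out of 24346 gene symbols, were followed in hippocampal neurospheres of single mice. They encode the enzymes that make polyamines (Odc1, Amd1, Srm and Sms), the proteins that control ornithine decarboxylase (Oaz1, Oaz2 and Azin1) and the enzymes that acetylate or oxidise polyamines (Sat1, Smox and Paox). Neurospheres are floating clusters of cells grown from neural stem cells. Each of the 7 RNA-seq libraries came from the primary neurospheres of 1 mouse. There were 4 control libraries (WT_116, WT_213, WT_215 and WT_220) and 3 Med23 CKO libraries (KO_117, KO_214 and KO_218), and values are listed below in that order. Med23 CKO mice carried Nestin-CreER, a tamoxifen-activated recombinase driven by Nestin in neural stem and progenitor cells. The study states that endothelial cells express Nestin-driven Cre too. Med23 CKO mice were also Med23 fl/fl, in which exons 5 to 7 of this Mediator subunit are flanked by loxP sites. Controls were littermates of genotype Med23 fl/+ or Med23 fl/fl, entered in the labels as wild type. All mice were of strain C57/BL6 and were given tamoxifen at 200 mg/kg by gavage on 5 days. The labels give an age of 2 months for the mice the cells were taken from. They give the same age for the tamoxifen, which the study's methods place earlier for hippocampal cultures, so the age at tamoxifen is uncertain. All cultures received FGF, EGF, B27 and the N2 supplement, whose standard formula contains putrescine. Mice of either sex were used, and the sex and litter of each mouse are not given in the sources used here.

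Polyamines are small, positively charged molecules that bind RNA and DNA, and growing cells need them. Ornithine decarboxylase (Odc1) turns ornithine into putrescine, and S-adenosylmethionine decarboxylase (Amd1) supplies the aminopropyl groups with which spermidine synthase (Srm) and spermine synthase (Sms) extend it to spermidine and then spermine. Antizymes (Oaz1, Oaz2) bind ornithine decarboxylase and send it to the proteasome, and the antizyme inhibitor Azin1 binds the antizymes in its place. Spermidine/spermine acetyltransferase (Sat1), spermine oxidase (Smox) and polyamine oxidase (Paox) run the pathway backwards. Much of this control acts on translation and protein stability, which RNA levels do not show.

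A pair of near-identical gene copies bears on what the values of Amd1 and Oaz1 mean, so their sequences come first. Amd1 has a copy, Amd2, on the same chromosome (Amd1 at chr10:40287458-40302188 and Amd2 at chr10:35708691-35711891, both RefSeq, GRCm38.p6). Over 3204 aligned transcript bases 3190 were identical (99.6%), with 14 mismatches and a longest identical run of 930 bases. The coding sequences of 1002 bases differed at a single base. Oaz1 (chr10:80826656-80829290) has a copy annotated as a pseudogene, Oaz1-ps (chr17:17345242-17346204), which matched it at 683 of 684 aligned bases (99.9%). Oaz1-ps is the shorter of the pair (685 against 1044 bases), and the 361 unaligned bases are nearly all Oaz1 sequence with no counterpart in the copy. A read that lies wholly in an aligned stretch and covers none of these differences fits both copies equally well. The lines below show 60 bases around the single coding difference of Amd1 and Amd2 and around the single difference of Oaz1 and Oaz1-ps, from GENCODE M21 transcripts (GRCm38, the assembly also called mm10), with the differing base in capitals.
Amd1: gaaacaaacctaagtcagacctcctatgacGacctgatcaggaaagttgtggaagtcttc
Amd2: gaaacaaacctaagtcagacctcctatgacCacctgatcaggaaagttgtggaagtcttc
Oaz1: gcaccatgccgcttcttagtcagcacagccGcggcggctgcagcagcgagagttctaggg
Oaz1-ps: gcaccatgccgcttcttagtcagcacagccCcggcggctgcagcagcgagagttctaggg
The Amd1 window is exonic at chr10:40290157-40290216 and the Amd2 window at chr10:35710735-35710794, both on the minus strand and both at coding positions 766 to 825. The Oaz1 window is spliced from exons between chr10:80826854 and chr10:80828244 on the plus strand, and the Oaz1-ps window lies at chr17:17345987-17346046 on the minus strand. How reads that fit both copies were divided is not given in the sources used here.

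Levels are FPKM, fragments counted per unit of transcript length and of mapped reads, as Cuffdiff gave them. Depth per library is unknown, and the number of libraries limits the precision. Between 16841 and 18113 genes were above 0 in a library, and no pair of libraries was identical. The targeted gene, Med23, was at 10.3, 12.9, 11.4 and 10.1 FPKM in controls and at 9.97, 9.27 and 8.12 FPKM in Med23 CKO. All Med23 CKO values lay below all control values, by a log2 difference of -0.26 (SE 0.18; exact permutation p = 0.0571). FPKM counts the whole gene and not the deleted exons alone. The neural stem cell markers Sox2, Nes, Vim and Fabp7 were between 61.1 and 1694 FPKM in all libraries. Xist was at 91.3 FPKM in WT_220 and 111 FPKM in KO_218, and under 1 FPKM in the other 5 libraries. The Y-linked genes Ddx3y, Eif2s3y, Kdm5d and Uty were lowest in WT_220 and next lowest in KO_218. Eif2s3y was at 0.226 FPKM in WT_220, 1.67 FPKM in KO_218 and between 28.2 and 63.4 FPKM in the other 5.

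None of the 10 polyamine genes passed the test for a difference between Med23 CKO and control. Med23 CKO was compared with control on log2(FPKM + 1) by limma over the 14151 genes with a mean of at least 0.5 FPKM, which all 10 genes passed. With Benjamini-Hochberg adjustment 0 genes of the 14151 (0%) passed 0.05, and 0 of the 10. At an unadjusted limma p under 0.05 there were 212 genes (1.50%) and 1 of the 10, Amd1. By mean log2 value 5 of the 10 were higher in Med23 CKO and 5 lower, with a median log2 difference of 0.01, against -0.03 over all genes tested, of which 43.8% were higher. The 3 Med23 CKO values lay above all 4 controls for 111 genes (0.784%) and below them for 217 (1.53%), and for none of the 10. The pseudocount of 1 makes the differences of low genes, such as Paox, smaller than their FPKM would give. In bulk RNA, fewer cells of a type and less RNA per cell cannot be told apart.

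**Figure D1:**
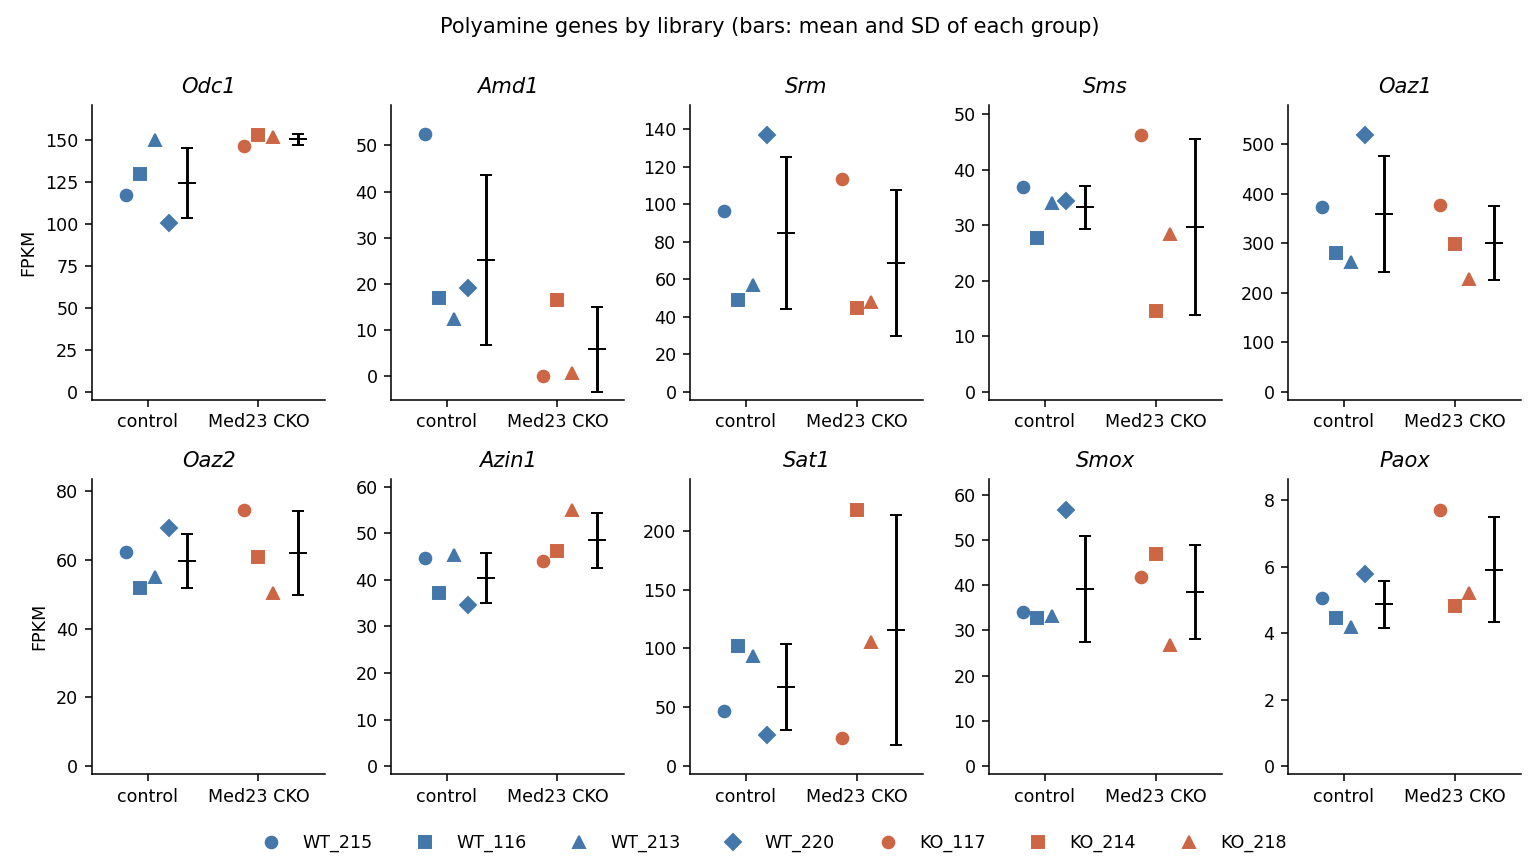
FPKM of the 10 polyamine genes (vertical axes, each from about 0), with 1 symbol per library and the mean ± SD of each group beside it. The 3 Med23 CKO values of Odc1 lie between 147 and 153 FPKM while those of Sat1 run from 23.6 to 217.8 FPKM.

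Ornithine decarboxylase mRNA was abundant and steady. Odc1, the entry enzyme of the pathway and a classic target of Myc, was read at 130.0, 150.1, 117.4 and 101 FPKM in the controls and at 147, 153 and 152 FPKM in Med23 CKO. The 3 Med23 CKO libraries were closer to each other than the controls were, and the highest control, WT_213, lay among them. Group means were 125 ± 20.8 FPKM (SD, n = 4) and 151 ± 3.36 FPKM (SD, n = 3). The log2 difference was 0.29 (SE 0.17, 95% interval -0.12 to 0.69), which did not pass the test (exact permutation p = 0.0857, where 0.0286 is the smallest p that 4 against 3 libraries allow). With each library left out in turn it stayed between 0.19 and 0.38. Odc1 varied less between libraries (SD 0.23 on the log2 scale over all 7) than most genes, at percentile 23.6 of the genes tested.

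Amd1, the decarboxylase that provides the aminopropyl donor, had the widest spread. Its deposited values were 16.9, 12.3, 52.5 and 19.2 FPKM in controls, against 0.0280, 16.5 and 0.694 FPKM in Med23 CKO. KO_117 and KO_218 stood apart at under 1 FPKM, while KO_214 was within the control range. The log2 difference was -2.85 (SE 0.97, limma p = 0.0202 unadjusted and 1.0 adjusted; exact permutation p = 0.0571). It no longer passed an unadjusted 0.05 when WT_215, KO_117 or KO_218 was left out, with differences from -4.09 to -2.05 over all such fits.

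The copy mirrored it. Amd2 stood at 61.8, 56.4, 0.0163 and 24.8 FPKM in controls and at 54.3, 51.3 and 87.5 FPKM in Med23 CKO. The control library with the most Amd1, WT_215, had almost no Amd2, and KO_117, with almost no Amd1, had ample Amd2. Amd1 made up 21.4%, 17.9%, 100% and 43.6% of the pair in the controls. In Med23 CKO its share was 0.0515%, 24.3% and 0.787%. Summed over both copies the values were 78.7, 68.8, 52.6 and 44.0 FPKM in controls and 54.3, 67.8 and 88.2 FPKM in Med23 CKO, so that the groups overlapped over most of their range. Means of the sum were 61.0 ± 15.7 FPKM (SD, n = 4) and 70.1 ± 17.0 FPKM (SD, n = 3). The log2 difference of the sum was 0.21 (SE 0.26, 95% interval -0.40 to 0.81; exact permutation p = 0.486), opposite in sign to that of Amd1 alone. Summing was chosen after the values were seen. With it, 0 of the 10 genes had an unadjusted limma p under 0.05.

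**Figure D2:**
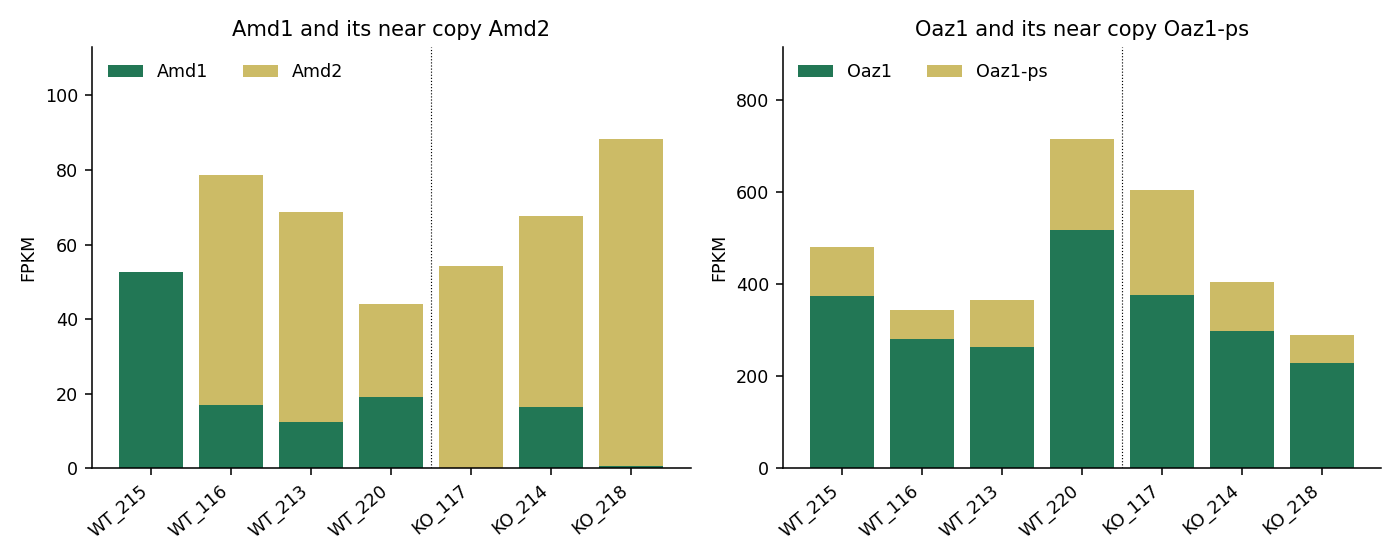
Stacked FPKM (vertical axes from 0) of Amd1 with Amd2 and of Oaz1 with Oaz1-ps in each library, controls left of the dotted line and Med23 CKO right of it. The split between Amd1 and Amd2 changes from all Amd1 in WT_215 to 0.0515% Amd1 in KO_117, while their sum stays between 44.0 and 88.2 FPKM.

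The 2 synthases differed between mice of the same group more than between groups. Srm, spermidine synthase, was at 49.0, 57.1, 96.4 and 137 FPKM in controls and at 113, 45.0 and 47.8 FPKM in Med23 CKO. High and low libraries occurred in both groups, with WT_220, KO_117 and WT_215 in the upper range. Its log2 difference was -0.31 (SE 0.46, 95% interval -1.38 to 0.75; exact permutation p = 0.571), and it ranged from -0.74 without KO_117 to -0.05 without WT_220. Sms, spermine synthase, was at 27.7, 34.0, 37.0 and 34.3 FPKM in controls and at 46.2, 14.5 and 28.5 FPKM in Med23 CKO, where both its highest and its lowest value fell. Means were 33.2 ± 3.91 FPKM (SD, n = 4) and 29.7 ± 15.9 FPKM (SD, n = 3), with a log2 difference of -0.29 (SE 0.36; exact permutation p = 0.629) that became 0.13 without KO_214.

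Among the regulators, Oaz1 was the most abundant of the 10 transcripts. Oaz1, whose antizyme is made by a ribosomal frameshift that polyamines promote, was read at 280.2, 262, 373 and 517 FPKM in controls and at 376, 299 and 227 FPKM in Med23 CKO. WT_220 was the highest library and KO_218 the lowest, and the groups overlapped. The log2 difference was -0.23 (SE 0.29, 95% interval -0.91 to 0.45; exact permutation p = 0.514), and it ranged from -0.40 without KO_117 to -0.03 without WT_220. Its pseudogene copy was listed at 62.8, 103, 106 and 196 FPKM in controls and 227, 105 and 61.7 FPKM in Med23 CKO, so that Oaz1 held 62.4% (KO_117) to 81.7% (WT_116) of the pair, a far steadier split than that of Amd1 and Amd2. For the sum the log2 difference was -0.14 (SE 0.34; exact permutation p = 0.743).

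Oaz2 and Azin1 varied little. Oaz2, the second antizyme, stood at 51.9, 54.9, 62.2 and 69.2 FPKM in controls and at 74.5, 60.7 and 50.2 FPKM in Med23 CKO, with lowest and highest value both in Med23 CKO. Its log2 difference was 0.04 (SE 0.19, 95% interval -0.40 to 0.49; exact permutation p = 0.8), and it turned to -0.02 without WT_116 and to -0.10 without KO_117. Azin1, which frees ornithine decarboxylase from antizyme, was at 37.1, 45.3, 44.6 and 34.6 FPKM in controls and at 44.1, 46.1 and 55.0 FPKM in Med23 CKO. KO_214 and KO_218 lay above all controls and KO_117 below WT_213 and WT_215. The means were 40.4 ± 5.35 FPKM (SD, n = 4) and 48.4 ± 5.82 FPKM (SD, n = 3), a log2 difference of 0.26 (SE 0.17, 95% interval -0.14 to 0.66; exact permutation p = 0.2). The ratio of Oaz1 to Odc1 FPKM was 2.16, 1.75, 3.18 and 5.13 in controls and 2.56, 1.95 and 1.49 in Med23 CKO, so antizyme mRNA exceeded that of its target in all 7 libraries.

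On the catabolic side Sat1 spread most. Sat1, the acetyltransferase that limits polyamine breakdown and export, was at 102, 93.4, 47.0 and 26.4 FPKM in controls and at 23.6, 217.8 and 105 FPKM in Med23 CKO. The highest and the lowest of all 7 libraries, 9.24-fold apart, were both Med23 CKO. Group means were 67.2 ± 36.4 FPKM (SD, n = 4) and 115.6 ± 97.5 FPKM (SD, n = 3). The log2 difference of 0.47 (SE 0.78, 95% interval -1.35 to 2.29; exact permutation p = 0.6) fell to -0.23 without KO_214 and reached 1.35 without KO_117. The SD of Sat1 over the 7 libraries, 1.15 on the log2 scale, was at percentile 95.6 of the genes tested.

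Both oxidases showed small differences. Smox, which turns spermine back into spermidine, was at 32.7, 33.2, 34.1 and 56.7 FPKM in controls and at 41.8, 46.9 and 26.8 FPKM in Med23 CKO. Of the controls 3 lay within a narrow range and WT_220 far above them. The log2 difference was -0.02 (SE 0.28, 95% interval -0.67 to 0.62; exact permutation p = 0.971), and it became 0.16 without WT_220 and 0.21 without KO_218. Paox, the peroxisomal oxidase of acetylated polyamines, was the lowest of the 10, at 4.45, 4.19, 5.05 and 5.78 FPKM in controls and 7.72, 4.81 and 5.21 FPKM in Med23 CKO. KO_117 had the highest value and the other libraries overlapped. Its log2 difference was 0.22 (SE 0.22, 95% interval -0.29 to 0.74; exact permutation p = 0.286), and it came to 0.04 without KO_117 and 0.33 without KO_214.

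**Figure D3:**
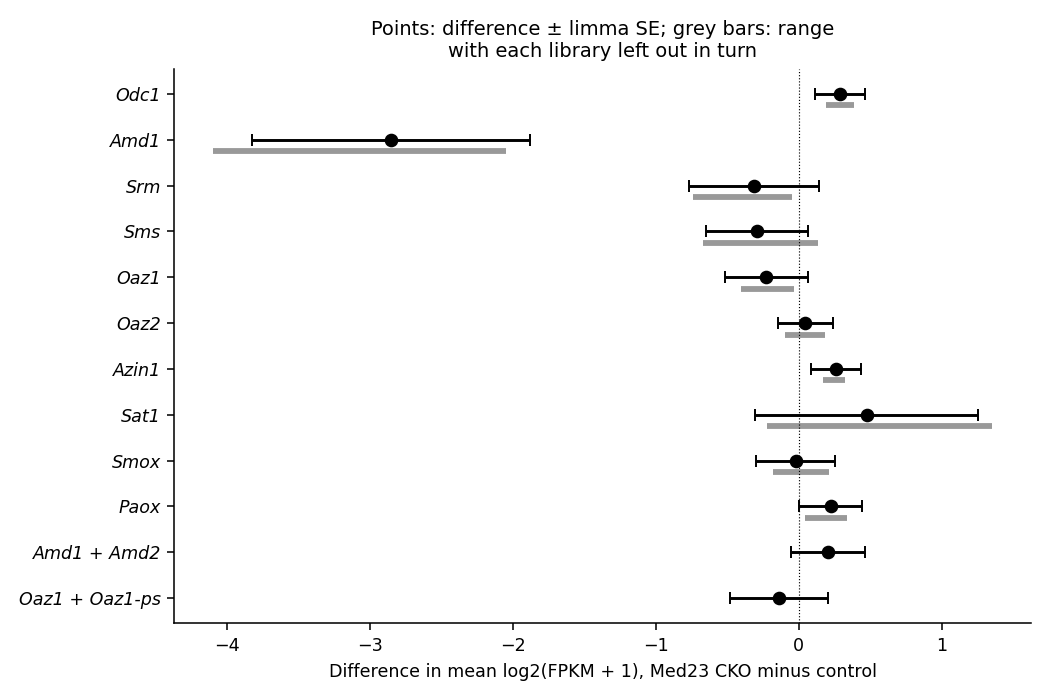
Difference in mean log2(FPKM + 1), Med23 CKO minus control, for the 10 genes and the sums of near copies (points), with the limma SE (black bars) and the range when each library is left out in turn (grey bars, the 10 genes only). Amd1 sits at -2.85 alone and at 0.21 when summed with Amd2, and the grey bars of Sms, Oaz2, Sat1 and Smox cross 0.

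FPKM is scaled by transcript length, so levels of different genes can be ranked within a library. By mean log2(FPKM + 1) over the 7 libraries the order was Oaz1, Odc1, Srm, Sat1, Oaz2, Azin1, Smox, Sms, Amd1 and Paox, from a mean of 334 FPKM for Oaz1 (percentile 98.6 of genes tested) through 136 FPKM for Odc1 (percentile 96.2) to 5.32 FPKM for Paox (percentile 32.4). Oaz1 exceeded Odc1 in 7 of 7 libraries (exact sign-flip permutation p = 0.0156, the smallest 7 libraries allow), which adjusted over the 9 neighbouring pairs came to 0.141. Odc1 exceeded Srm in 6 of 7 libraries and Oaz2 exceeded Azin1 in 6 of 7, each also at an adjusted exact p of 0.141. Srm and Sat1 could not be ordered, since Srm was higher in only 3 of 7 libraries. No neighbouring pair in the order differed at an adjusted exact p under 0.05. With 7 libraries that threshold can be met only if several pairs reach the smallest p together. The place of Amd1 in this order rests on its split with Amd2, since the sum of both had a mean of 61.0 FPKM in controls, near that of Oaz2.

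Sat1 and Srm ran in opposite orders over the libraries, across both genotypes. The ratio of Srm to Sat1 FPKM was 0.481, 0.611, 2.05 and 5.18 in controls and 4.81, 0.207 and 0.454 in Med23 CKO. Srm exceeded Sat1 in WT_220, KO_117 and WT_215 and was below it in the other 4 libraries, so that mice of both groups stood on either side. Myc, the growth regulator that drives several genes of the pathway, was at 19.0, 35.2, 48.8 and 94.1 FPKM in controls and at 54.6, 16.6 and 16.4 FPKM in Med23 CKO. Like Srm, it was highest in WT_220, KO_117 and WT_215, in that order. Odc1 did not share this order. It was lowest in WT_220 (101 FPKM) and highest in KO_214 and KO_218 (153 and 152 FPKM), where Myc was lowest. These orders describe 7 libraries and were not tested.

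Cell cycle genes and markers of other cell types also varied widely between libraries. The mean log2(FPKM + 1) of 20 cell cycle genes was 4.18, 4.92, 5.90 and 6.01 in controls and 6.38, 3.22 and 4.94 in Med23 CKO. It was highest in KO_117, which had the least Sat1, and lowest in KO_214, which had the least Srm and the most Sat1. Over 14 microglial genes the mean was 3.00, 3.37, 2.20 and 1.58 in controls and 1.59, 5.08 and 3.07 in Med23 CKO, and over 8 endothelial genes it was 2.05, 2.87, 1.10 and 1.02 in controls and 0.806, 3.68 and 2.34 in Med23 CKO. Both lists were highest in KO_214 and lowest in WT_220 or KO_117, the same ends as Sat1. Summed microglial FPKM ranged from 49.4 to 327 in controls and from 48.7 to 1546 in Med23 CKO, and summed cell cycle FPKM from 553 to 1668 and from 331.5 to 2142. Endothelial sums were 10.4 to 69.7 FPKM in controls and 6.60 to 123 in Med23 CKO, and sums of 8 mural and fibroblast genes were 8.70 to 82.8 and 6.49 to 343. No gene of these lists was at 0 in any library, although the microglial receptor Cx3cr1 stayed under 1 FPKM throughout. Gfap, a marker of astrocytes and of adult neural stem cells, was at 17.8 FPKM in WT_220, 19.4 FPKM in KO_117 and 321 FPKM in KO_214. Mbp, the myelin basic protein, was at 66.5 FPKM in KO_117, 238 FPKM in WT_220 and between 838 and 2234 FPKM in the other 5 libraries. The mean of 10 neural stem cell genes stayed between 5.24 and 6.16. No gene tested in the cell cycle, neural stem cell, microglial, endothelial or mural lists had an unadjusted limma p under 0.05 between Med23 CKO and control. Of 8 oligodendrocyte lineage genes 0 passed as well. By mean log2 value, 20 of 20 cell cycle genes were lower in Med23 CKO, where 43.8% of all genes tested were higher. Higher were 13 of 13 microglial, 8 of 8 endothelial and 8 of 8 mural genes tested. Cx3cr1, the microglial gene too low to be tested, was slightly lower (log2 difference -0.05). Groups overlapped for each gene. By mean FPKM some of the cell cycle genes were instead higher in Med23 CKO. KO_214 had the lowest mean of the cell cycle list and the highest of the microglial, endothelial and mural lists. The counts of direction rest in large part on that library. The part of these lists in the spread of Sat1 and Srm was not tested. Sat1 and Sms are X-linked (chrX:155213126-155216449 and chrX:157443851-157492287, GRCm38.p6). WT_220 and KO_218, the libraries with Xist over 1 FPKM, were at 26.4 and 105 FPKM for Sat1 and at 34.3 and 28.5 FPKM for Sms, within the range of the others.

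**Figure D4:**
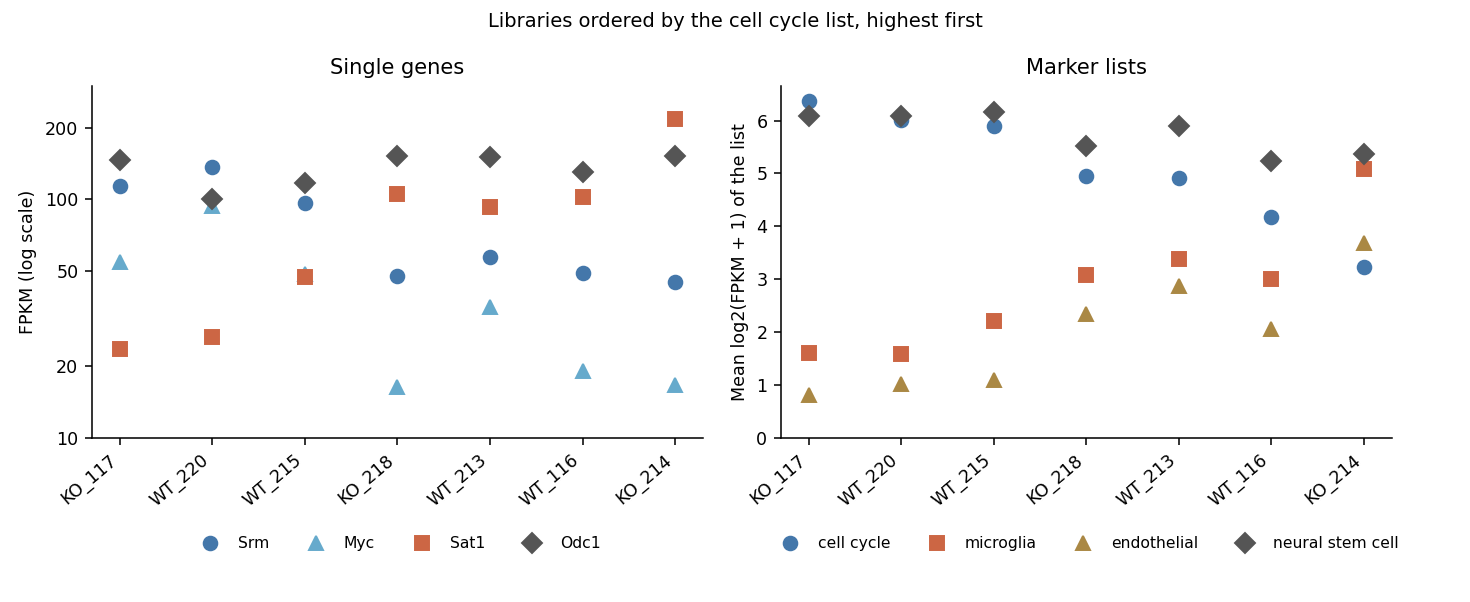
Left, FPKM (log axis) of Srm, Myc, Sat1 and Odc1; right, mean log2(FPKM + 1) of 4 gene lists. Libraries are placed from the highest to the lowest mean of the cell cycle list, and Srm is above Sat1 in KO_117, WT_220 and WT_215, at the left, and below it in the other 4, while Odc1 stays between 101 and 153 FPKM in all 7.

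Some genes were highly correlated with Sat1 or with Odc1 on the log2 scale. For Sat1 these were Itm2b (Pearson r = 0.998 over 7 libraries), Tuba4a (0.996), S1pr1 (0.995), Cd38 (0.995) and Sqrdl (0.995), and 599 genes had an r over 0.95. Itm2b, a membrane protein, ran from 187 FPKM in KO_117 to 820 FPKM in KO_214, and the NAD-consuming ectoenzyme Cd38 from 0.260 to 7.28 FPKM in the same libraries. For Odc1 they were Trmt5 (r = 0.990), Dmrt3 (0.984), 6430573F11Rik (0.976), Limch1 (0.951) and Echs1 (0.951), and these 5 were all the genes over 0.95. Trmt5, a tRNA methyltransferase, stayed between 6.53 and 7.92 FPKM. Dmrt3 ran from 0.494 to 3.34 FPKM, and by ranks its correlation with Odc1 was lower (Spearman rho 0.679). These correlations come from the same 7 libraries as the list values above and are given as a description. With 7 libraries and 14151 genes, a few correlations over 0.95 can arise by chance. The 5 genes of Odc1 were not tested against that.

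Of 34 further genes around the pathway, 28 were expressed enough to be tested, and a single one, Oat, had an unadjusted limma p under 0.05. Their median log2 difference was -0.03, the same as over all genes. Oat, ornithine aminotransferase, links ornithine with glutamate and proline and so shares the substrate of Odc1. It was at 41.7, 39.5, 39.9 and 40.8 FPKM in controls and at 65.3, 50.7 and 49.4 FPKM in Med23 CKO. All Med23 CKO values lay above all controls, which were close together. Means were 40.5 ± 0.947 FPKM (SD, n = 4) and 55.1 ± 8.80 FPKM (SD, n = 3), a log2 difference of 0.43 (SE 0.16, limma p = 0.0279 unadjusted and 1.0 adjusted; exact permutation p = 0.0286, the smallest possible). Without WT_116, WT_213, WT_215 or KO_117 it no longer had an unadjusted limma p under 0.05. With 1.50% of all genes at an unadjusted p under 0.05, 1 of 28 is not a result about the pathway.

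The ornithine and arginine supply, from which 6 of 8 genes were tested, thus held 1 gene higher (Oat) and 0 lower, and the other pathway lists held no gene at an unadjusted limma p under 0.05. Among paralogs and copies of the 10 genes, 4 of 5 were tested, 0 in either direction. Sat2, the relative of Sat1, had the smallest limma p there (log2 difference -0.34, exact permutation p = 0.143). In the methionine cycle and the salvage of methylthioadenosine, the by-product of both synthases, 8 of 8 were tested and 0 passed. Mat2a, which makes S-adenosylmethionine, was its most abundant gene, at 161 ± 47.5 FPKM (SD, n = 4) in controls and 166 ± 42.3 FPKM (SD, n = 3) in Med23 CKO. The smallest limma p belonged to Enoph1 of the salvage route (log2 difference -0.25, exact permutation p = 0.2). Of the hypusine genes, which use spermidine to modify the translation factor eIF5A, 4 of 4 were tested and 0 passed. Eif5a itself was at 384, 436, 692 and 844 FPKM in controls and at 839, 364 and 354 FPKM in Med23 CKO, highest, like Srm, in WT_220, KO_117 and WT_215, and its log2 difference was -0.23 (SE 0.41). Dohh, the hydroxylase that completes hypusine, had a log2 difference of -0.18 (exact permutation p = 0.657). Of 9 carriers linked to polyamine transport 6 were tested and 0 passed. Slc3a2, the most abundant, was at 136 ± 11.3 FPKM (SD, n = 4) and 154 ± 52.9 FPKM (SD, n = 3). All 7 genes of the Myc family had a lower mean in Med23 CKO, with a median log2 difference of -0.18 and 0 passing, where 43.8% of all genes tested had a higher mean. The groups overlapped for all 7. Myc had the smallest limma p of them, at a log2 difference of -0.74 (SE 0.61). Among 8 neuronal markers a single gene had an unadjusted limma p under 0.05, against 1.50% of all genes, and 1 of 8 is not a result about the list. It was Gad1, the enzyme that makes GABA, at 8.92, 12.2, 11.6 and 11.1 FPKM in controls and at 5.24, 2.21 and 4.42 FPKM in Med23 CKO (log2 difference -1.32, limma p = 0.00147 unadjusted and 1.0 adjusted; exact permutation p = 0.0286).

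**Figure D5:**
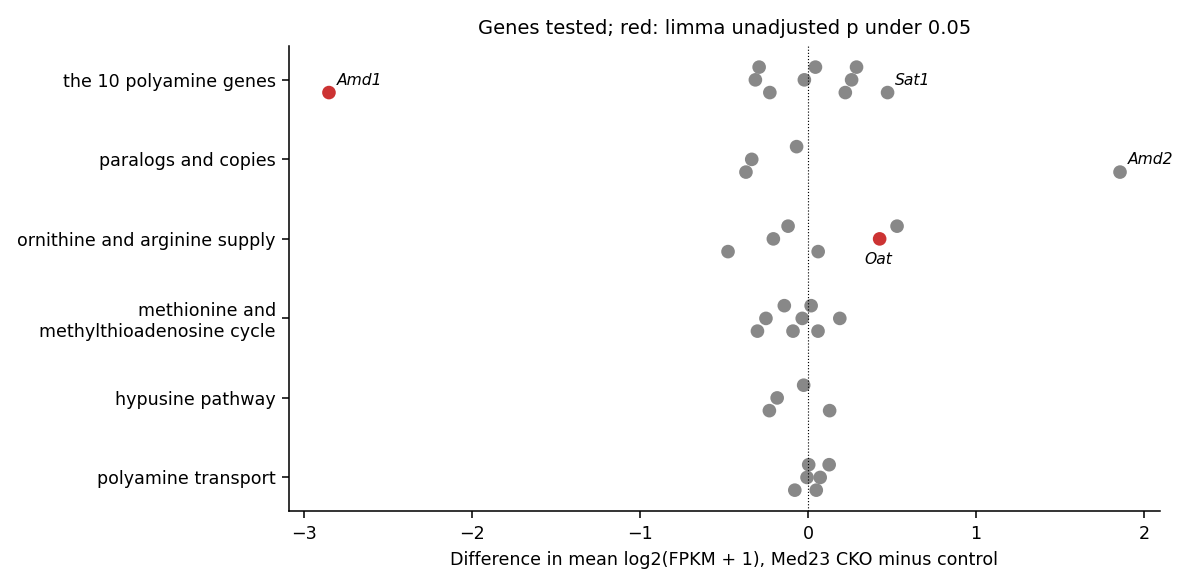
Difference in mean log2(FPKM + 1), Med23 CKO minus control (horizontal axis), of every tested gene in the 10 polyamine genes and the 5 lists around them, 1 point per gene, red at an unadjusted limma p under 0.05. Amd1 (-2.85) and its copy Amd2 (1.86) lie far out on opposite sides, and all other points lie between Slc7a3 (-0.48) and Slc7a2 (0.53), with Oat at 0.43 and Sat1 at 0.47.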

How the data were processed

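Total RNA of primary neurospheres was sequenced in 4 control and 3 Med23 CKO libraries, each from 1 mouse. The authors trimmed adapters, aligned reads to mm10 with TopHat and deposited FPKM per gene from Cuffdiff. The table also holds group means and the authors' own fold changes, p-values and q-values, none of which were used. The study states 3 mice per group, and all 4 deposited controls were kept. All 24346 symbols were read, and 0 columns lacked a sample. The 14151 genes that reached a mean of 0.5 FPKM were put on a log2 scale after adding a pseudocount of 1. Groups were compared with limma 3.58.1 in R 4.3.3 (lmFit, eBayes with trend, two-sided, Benjamini-Hochberg over all genes tested), and intervals are at 95% from the same fit. Single genes were also compared by a two-sided exact permutation over 35 splits. Order of levels was tested by exact sign flips with scipy 1.17.1. Scripts were tested on simulated data. P-values of the group comparison set a difference against the variation between libraries, each from the culture of 1 mouse. For limma that variation is estimated with help from all genes tested. Sign-flip p-values compare genes within each library.

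The 10 genes and all lists were chosen with earlier results of these data known. Named in the text were the 10 genes, Med23, list genes with an unadjusted p under 0.05 or groups that did not overlap, the most abundant gene and that of smallest p in the pathway lists, and the 5 genes most correlated with Sat1 and Odc1. Single markers of neural stem cells, microglia, astrocytes and myelin, Xist, and Oaz1-ps were chosen after their values were seen. Alternatives were other pseudocounts, filters, scalings, weights, and each library left out in turn. The sum of near-identical copies was added after seeing the data. Coordinates are from RefSeq GRCm38.p6 and sequences from GENCODE M21, in which all 10 genes and both copies were matched by symbol.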

Additional observations from a re-analysis of the deposited data

Results flagged for a closer look

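In the 4 controls, 1 library stood far from the others for 2 of the 16 gene values examined in this way, a test in which chance alone marks about 1 group in 20. Amd1 was at 52.5 FPKM in WT_215, with a gap to the next control of 0.83 of the whole range, just over Dixon's critical value for 4 samples. The same library had 0.0163 FPKM of the copy Amd2. Smox was at 56.7 FPKM in WT_220, with a gap of 0.939 of the range. WT_220 also had the highest Srm (137 FPKM) and Oaz1 (517 FPKM) of all libraries. The Med23 CKO group, with 3 libraries, is too small for this test.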

How the results depend on the processing

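No paired analysis was possible because the groups share no mouse number. Under every alternative, 0 of the 10 genes passed an adjusted 0.05. No neighbouring pair in the order of levels did with a pseudocount of 0.1, quantile normalization or each library left out, and the order was not run under the others. With a library left out, a pair can pass only if most of the 9 pairs reach the smallest possible p. Those fits therefore say little about the order. The number of the 10 with an unadjusted limma p under 0.05, which was 1 (Amd1), ranged from 0 to 1 with each library left out (0 without WT_215, KO_117 or KO_218) and was 0 with the near copies summed. Among the pathway genes it was 1 (Oat), 2 with array weights (Oat and Enoph1), whose estimation stopped before convergence, and 0 to 1 with each library left out (0 without WT_215 or WT_213; the gene was Sat2, not Oat, without WT_116 and Slc7a2 without KO_117). Of 150 single-gene values under an alternative, 141 kept their direction and, like the rest, stayed above an adjusted 0.05, and 9 reversed. The other filters and a fit without the trend cannot change a gene's difference. Summing copies can change only those of Amd1 and Oaz1. Such values keep their direction in any case, so the count of 141 overstates how stable the directions are. With each library left out in turn, Sat1 ranged from -0.23 (without KO_214) to 1.35, Sms from -0.67 to 0.13 (without KO_214), Smox from -0.18 to 0.21 (without KO_218; 0.16 without WT_220) and Oaz2 from -0.10 (without KO_117; -0.02 without WT_116) to 0.18. Amd1 became 0.21 on summing the copies, a choice made after seeing the data. Smox became 0.0035 with each library centred on its median, and Oaz2 became -0.13 with array weights. Amd1 alone was at -4.18 with a pseudocount of 0.1. The cause of these reversals was not tested. Depth is unknown, so values near 0 carry no counting limit here.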
